A study of Arabidopsis with 12 samples.

Results

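IAA29 (locus AT4G32280) and GH3.3 (locus AT2G23170) are auxin response genes of Arabidopsis thaliana, and their transcript levels are described here array by array. They are 2 of the 16548 genes named on the arrays, each read by 1 probe set, and were picked by name from the probe annotation after their pattern in these data was known. Their levels and differences are therefore given as a description, without a test. RNA came from whole seedlings. These had 5 days of growth at 22 °C and then 72 h on water-deficit medium made with 2% agar or on control medium made with 0.8% agar, and were 8 days old at harvest. The 4 groups, of 3 arrays each, were tori 35-7 under water deficit, tori 35-7 on control medium, Col-0 under water deficit and Col-0 on control medium. Col-0 is the common laboratory accession, and the labels give no allele for it. The labels give no further description of tori 35-7, neither the allele nor whether it is 1 line or a pool, and the series title ties the study to TOR, the Target of Rapamycin kinase. TOR itself was not analysed here, so the arrays give no check of the genotype labels through it.

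Auxin acts by removing repressors. The hormone joins the TIR1/AFB receptor proteins to Aux/IAA proteins, which are then degraded, and the auxin response factors that the Aux/IAA proteins had held back can act on their target genes. Among those targets are the Aux/IAA genes themselves, the GH3 genes and the SAUR genes. IAA29 encodes an Aux/IAA repressor and is known in seedlings as a gene induced by auxin, by shade and by the phytochrome-interacting factors (PIFs). GH3.3 encodes an enzyme that joins indole-3-acetic acid, the main natural auxin, to amino acids and so lowers the free hormone. Both genes belong to the feedback with which the pathway limits its own output.

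IAA29 had log2 levels of 3.95, 4.75 and 4.80 on the tori 35-7 water-deficit arrays (replicates 1, 2 and 3), against 3.04, 3.24 and 2.83 on the tori 35-7 control arrays. In Col-0 it had 2.63, 2.55 and 2.40 under water deficit, against 2.25, 2.56 and 2.61 on control medium. The lowest tori 35-7 water-deficit array thus lay 0.71 above the highest tori 35-7 control array, and the lowest tori 35-7 control array lay above all 6 Col-0 arrays. The 2 Col-0 groups overlapped. Replicate 1 of tori 35-7 under water deficit was clearly lower than replicates 2 and 3 of that group.

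GH3.3 had log2 levels of 4.3079, 4.1004 and 4.3569 on the tori 35-7 water-deficit arrays, against 3.5867, 4.0755 and 3.5222 on the tori 35-7 control arrays. In Col-0 the levels were 2.9467, 3.7826 and 3.0392 under water deficit, against 3.3022, 3.2784 and 3.3772 on control medium. The 2 tori 35-7 groups were separated by only 0.025, and replicate 2 of tori 35-7 on control medium was nearly as high as the water-deficit arrays. In Col-0 under water deficit replicate 2 was the high array, above all 3 Col-0 control arrays, while replicates 1 and 3 were below them.

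**Figure D1:**
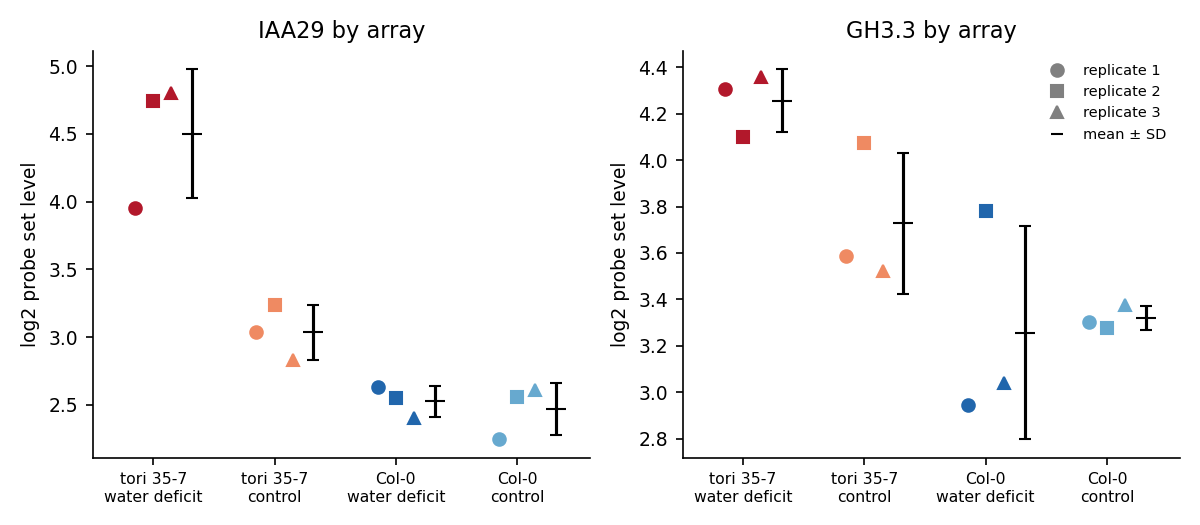
Log2 probe set level of IAA29 (left) and GH3.3 (right) on each of the 12 arrays, with symbols for replicates 1 to 3 and the group mean ± SD in black. Both genes are highest in tori 35-7 under water deficit, where IAA29 averages 4.50 and GH3.3 averages 4.26.

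In descending order, IAA29 averaged 4.50 ± 0.48 in tori 35-7 under water deficit, 3.04 ± 0.20 in tori 35-7 on control medium, 2.53 ± 0.12 in Col-0 under water deficit and 2.47 ± 0.19 in Col-0 on control medium (log2 level, SD, n = 3 each). The 2 Col-0 means do not differ beyond their spread. GH3.3 averaged 4.26 ± 0.14 in tori 35-7 under water deficit, 3.73 ± 0.30 in tori 35-7 on control medium, 3.26 ± 0.46 in Col-0 under water deficit and 3.32 ± 0.052 in Col-0 on control medium (SD, n = 3 each). Here too the 2 Col-0 groups lay within their spread, and tori 35-7 on control medium overlapped Col-0 under water deficit. Differences between the 4 groups made up 92.6% of the variance of IAA29 over the arrays and 74.7% of that of GH3.3. Because the genes were picked after their pattern was known, high shares were to be awaited and are only a description.

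The signal of both genes was modest. IAA29 was below the median of all probe sets of its array on 8 of the 12 arrays, and GH3.3 on 2 of the 12. Between 25.2% and 71.5% of an array's probe sets were dimmer than that of IAA29, and between 45.9% and 66.8% were dimmer than that of GH3.3. Probe sets differ in brightness for reasons of their own, so these shares describe signal strength and not amounts of transcript. RefSeq (TAIR10.1) lists 3 transcripts of IAA29 and 1 of GH3.3, and a level here is that of the gene's probe set without regard to transcript. In RNA of whole seedlings, a change in the number of cells that express a gene and a change in RNA per cell cannot be told apart.

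Across the table the array medians lay between 3.064 and 3.188. The arrays of replicate 1 of Col-0 under water deficit and replicate 1 of tori 35-7 on control medium had the narrowest spreads, with interquartile ranges of 2.56 and 2.68, against 2.91 to 3.08 on the other 10. Replicate 1 of Col-0 under water deficit also had the lowest median correlation with the other arrays, 0.950, where the others had at least 0.971. Values without these 2 arrays are given beside the differences of IAA29 and GH3.3. They are also given for some other named genes, among them those where leaving the 2 arrays out changes a call. Whole seedlings hold both root and shoot, and the root hair expansin gene EXPA7 (log2 level 4.102 to 4.472) and the photosynthesis genes LHCB4.1, LHCB4.2 and PSAE-1 were all measured.

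The first comparison was that of the media in tori 35-7. The level of IAA29 under water deficit was 2.76-fold that on control medium, a log2 difference of 1.46 ± 0.20 (SE of the model over all 12 arrays), and all 9 pairings of a water-deficit array with a control array had the same direction. It held rank 15 from the top among the differences of 16548 genes. GH3.3 was 1.44-fold higher, a log2 difference of 0.53 ± 0.20, also in all 9 pairings. Its rank was 382. Groups that did not overlap, with water deficit higher, were found for 11.1% of all genes in this comparison. Leaving out single arrays kept the difference of IAA29 between 1.31 and 1.74, and the highest value was that without replicate 1 of tori 35-7 under water deficit. That of GH3.3 lay between 0.42 and 0.70, and was highest without replicate 2 of tori 35-7 on control medium. Without the 2 arrays of narrow spread the differences were 1.47 for IAA29 and 0.46 for GH3.3.

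In Col-0 the same comparison gave small differences for both genes. IAA29 was 1.04-fold higher under water deficit (log2 difference 0.06 ± 0.20), with the water-deficit array higher in 5 of 9 pairings. GH3.3 was 1.04-fold lower (log2 difference -0.06 ± 0.20), with the water-deficit array higher in 3 of 9 pairings. The sign of these values rested on single arrays. When replicate 1 of the Col-0 water-deficit group was left out the difference of GH3.3 was 0.09, when replicate 2 of that group was left out it was -0.33, and that of IAA29 was between -0.05 and 0.13 when single arrays were left out. Without the 2 arrays of narrow spread the differences were 0.01 for IAA29 and 0.09 for GH3.3. Groups with water deficit higher and no overlap made up 7.26% of all genes here.

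The response of tori 35-7 minus that of Col-0 was 1.41 ± 0.29 on the log2 scale for IAA29. Among 16548 genes this value had rank 2 from the top, and it stayed between 1.26 and 1.68 when single arrays were left out. For GH3.3 the same quantity was 0.59 ± 0.29, at rank 441, with a range of 0.44 to 0.85 without single arrays. Without the 2 arrays of narrow spread it was 1.46 for IAA29 and 0.36 for GH3.3. These differences of responses rest on the same arrays as the responses themselves.

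**Figure D2:**
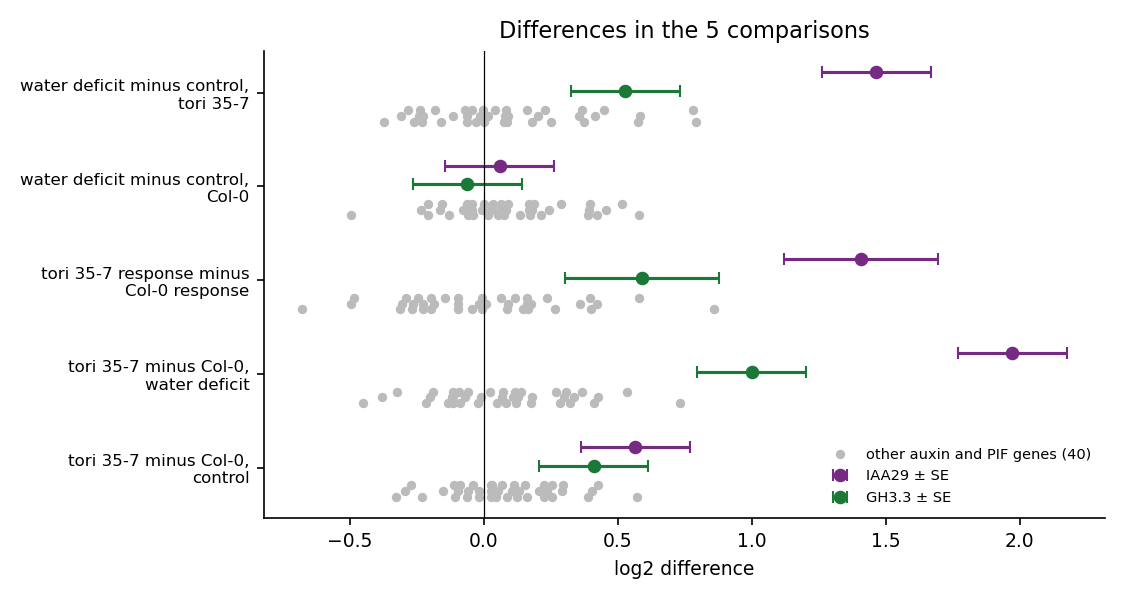
Log2 differences of IAA29 (purple) and GH3.3 (green) with the standard error of the model in the 5 comparisons, above the differences of the 40 other measured auxin and PIF genes (grey). IAA29 lies to the right of all 40 in 3 of the 5 comparisons, next to WES1 (0.57) on control medium and near 0 for water deficit in Col-0.

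Under water deficit, the IAA29 level in tori 35-7 was 3.92-fold that in Col-0 (log2 difference 1.97 ± 0.20), with the tori 35-7 array higher in all 9 pairings. Only 1 of 16548 genes had a higher difference. For GH3.3 the log2 difference was 0.999 ± 0.203, or 1.998-fold, at rank 35 and again with tori 35-7 higher in all 9 pairings. Of all genes, 8.61% were higher in tori 35-7 here without overlap of the groups. The values without the 2 narrow arrays were 2.02 for IAA29 and 0.84 for GH3.3.

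On control medium both genes were also higher in tori 35-7 than in Col-0, by smaller amounts. The log2 difference was 0.57 ± 0.20 for IAA29 (1.48-fold, rank 194) and 0.41 ± 0.20 for GH3.3 (1.33-fold, rank 545). Neither gene's groups overlapped, as was the case for 7.86% of all genes in this direction. The values without the 2 narrow arrays were 0.56 for IAA29 and 0.48 for GH3.3. The value of GH3.3 depended on tori 35-7 control replicate 2, without which it was 0.24. The tori 35-7 control arrays enter this comparison and that of the media in tori 35-7 with opposite sign, and the tori 35-7 water-deficit arrays enter 3 of the 5 comparisons, so these are not separate measurements.

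IAA29 and GH3.3 were alike between groups more than within them. Over the 12 arrays their levels had a Pearson correlation of 0.83 (Spearman 0.78), which the 4 group means largely set. Over the deviations of the 12 arrays from their group means it was 0.14. The arrays share a genotype and medium within groups, and these values are descriptions of the 12 arrays. Within tori 35-7 under water deficit, for instance, replicate 1 was the lowest array for IAA29 but above replicate 2 for GH3.3, and in Col-0 under water deficit the array that was high for GH3.3 was in the middle for IAA29.

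**Figure D3:**
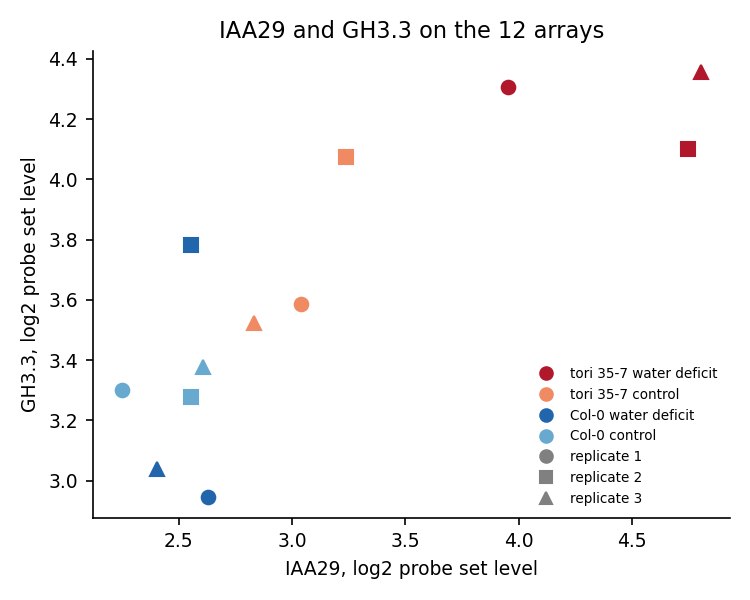
Log2 level of GH3.3 against that of IAA29 on the 12 arrays, coloured by group, with a symbol per replicate number. The 3 tori 35-7 water-deficit arrays lie at the upper right, and Col-0 water deficit replicate 2 stands above the other Col-0 arrays on the GH3.3 axis (3.78) while its IAA29 level is 2.55.

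The Aux/IAA family, to which IAA29 belongs, has 29 listed members, of which 8 were measured. Here and below, measured means read by a probe set that the annotation ties to 1 gene. Of 38408 probe sets 20927 are unnamed here, and 759 with several genes were left out. A listed gene not counted as measured may therefore still be on the arrays. The 7 measured besides IAA29 were IAA15, IAA18, IAA20, IAA30, IAA31, IAA33 and IAA34, all repressors of auxin response by family. Limma called 0 of the 7 in the 5 comparisons (adjusted p 0.465 or more), where at most 0.822% of all genes were called higher and 0.556% lower. None of the 7 had an unadjusted limma p under 0.05, against 1006 to 2128 of 16548 genes per comparison. Besides IAA18, the group means of these genes lay between 1.84 and 2.78, below the median of every array. At such low signal, 0 calls do not show that the genes were unchanged. In tori 35-7 their differences between water deficit and control lay between -0.24 (IAA15) and 0.08 (IAA31), with a median of 0.04, against a median of 0.01 over all 16548 genes. Between tori 35-7 and Col-0 under water deficit they ranged from -0.45 (IAA20) to 0.28 (IAA34), with a median of -0.06. IAA18, the brightest of the 7 on average, had levels of 3.78 ± 0.057 in tori 35-7 under water deficit and 3.71 ± 0.15 in tori 35-7 on control medium, and of 3.85 ± 0.36 in Col-0 under water deficit and 3.68 ± 0.20 in Col-0 on control medium (SD, n = 3 each). IAA20 averaged 1.96 ± 0.059 in tori 35-7 under water deficit and 2.41 ± 0.94 in Col-0 under water deficit, so that its difference was smaller than the spread of the Col-0 arrays. Without the 2 narrow arrays this IAA20 difference was 0.08.

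Of 19 listed GH3 loci 14 were measured, 13 besides GH3.3, and limma called 0 of the 13 in each comparison (adjusted p 0.0525 or more). At most 0.822% of all genes were called higher in a comparison and at most 0.556% lower. An unadjusted limma p under 0.05 was found for 0 to 2 of the 13 per comparison, against 1006 to 2128 of 16548 genes. The nearest to the threshold was WES1, also called GH3.5, an enzyme that conjugates auxin and salicylic acid to amino acids. It had log2 levels of 4.77, 5.03 and 4.85 in tori 35-7 under water deficit, against 4.28, 4.40 and 3.77 in Col-0 under water deficit. On control medium its levels were 4.37, 4.60 and 4.34 in tori 35-7, against 3.76, 3.89 and 3.95 in Col-0. The tori 35-7 arrays were thus above the Col-0 arrays on the water-deficit medium and on the control medium, without overlap within either medium. With each medium taken alone, the same held for 8.61% of all genes under water deficit and for 7.86% on control medium. The share of genes for which it held on both media is not given here.

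Under water deficit the WES1 level in tori 35-7 was 1.66-fold that in Col-0 without passing (log2 difference 0.73 ± 0.16, limma adjusted p = 0.0525). It was past the threshold in 6 of 9 other settings and in 2 of 12 with 1 array left out, with limma adjusted p-values from 0.0120 to 0.248 over the 9 and from 0.0328 to 0.214 over the 12. Without the 2 narrow arrays the difference was 0.79 and passed (limma adjusted p = 0.0307). On control medium the difference was 0.57 ± 0.16 (limma adjusted p = 0.163), and between water deficit and control it was 0.45 ± 0.16 in tori 35-7 (limma adjusted p = 0.307) and 0.29 ± 0.16 in Col-0 (limma adjusted p = 0.492). GH3.17, which encodes a further auxin-conjugating enzyme, differed by 0.41 ± 0.15 between tori 35-7 and Col-0 under water deficit (limma adjusted p = 0.233) and by 0.43 ± 0.15 on control medium (limma adjusted p = 0.283), but by -0.06 ± 0.15 between the media in tori 35-7. GH3.1 had a response of -0.28 in tori 35-7 and of 0.40 in Col-0, a difference of -0.68 ± 0.31 that did not pass (limma adjusted p = 0.814). Its level in Col-0 under water deficit was 3.58 on replicate 1, a narrow array, against 2.56 and 2.86 on replicates 2 and 3. Without the 2 narrow arrays the GH3.1 responses were -0.13 in tori 35-7 and 0.11 in Col-0, and their difference was -0.24. GH3.4 and GH3.9, with low group means of 1.96 to 2.41, had differences between -0.26 and 0.10. The 8 measured GH3 loci without a name in the gene tables (AT1G23160, AT1G48660, AT1G48670, AT5G13350, AT5G13360, AT5G13370, AT5G13380 and AT5G51470) had differences between -0.30 and 0.58. The highest, the difference of the responses of AT5G13370, was 0.20 without the 2 narrow arrays.

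Other steps of the pathway were measured in part. None of the 6 TIR1/AFB receptors and none of the 15 auxin response factors was analysed here. Of 20 synthesis genes 4 were measured, the flavin monooxygenase genes YUC2, YUC4, YUC6 and YUC11, and none passed. In no comparison were more than 0.822% of all genes called higher or more than 0.556% lower. YUC6 had the smallest p, with a difference of 0.41 ± 0.15 between water deficit and control in tori 35-7 (limma adjusted p = 0.307). Of 12 genes of other auxin inactivation and release 4 were measured. Limma called 1 of the 4 higher under water deficit in tori 35-7, where 0.822% of all genes were. This was AT1G14120, which the gene tables do not name. It had 4.75, 4.71 and 4.92 in tori 35-7 under water deficit, against 3.87, 4.03 and 4.14 in tori 35-7 on control medium, and these groups did not overlap, as for 11.1% of all genes in this direction. The rise was 1.72-fold (log2 difference 0.78 ± 0.18, limma adjusted p = 0.0464), while in Col-0 the difference was 0.51 ± 0.18 (limma adjusted p = 0.197), and the difference between the genotypes' responses did not pass (0.27, limma adjusted p = 0.885). This call held in 7 of 9 other settings but in 3 of 12 with 1 array left out, with limma adjusted p-values up to 0.221. Without the 2 narrow arrays the gene passed in Col-0 as well (0.67, limma adjusted p = 0.0460), the value in tori 35-7 was 0.71 (limma adjusted p = 0.0453), and the difference between the responses was 0.04. The call in tori 35-7 was lost without any 1 of the 6 tori 35-7 arrays, and without Col-0 control replicates 1 or 2 or Col-0 water deficit replicate 2.

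**Figure D4:**
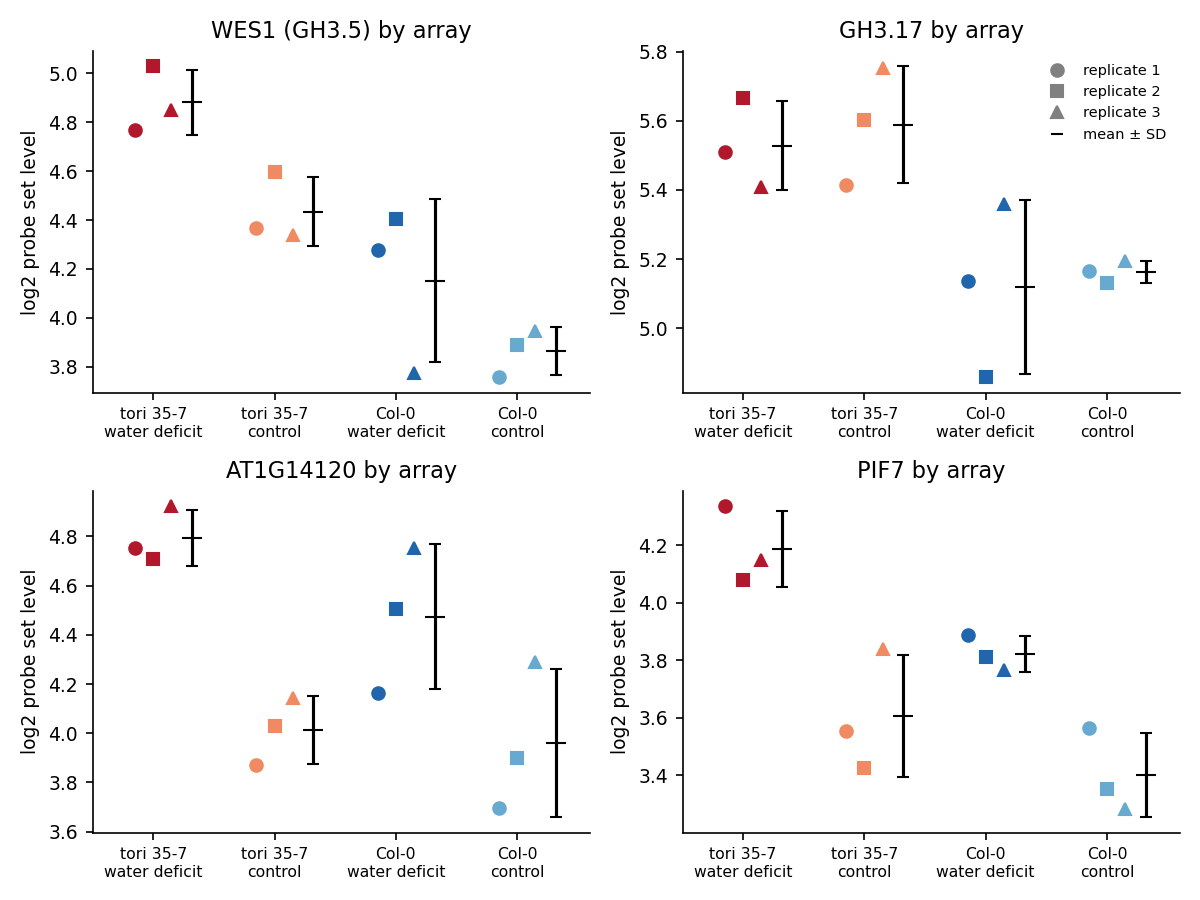
Log2 levels on each array of WES1 (GH3.5), GH3.17, AT1G14120 and PIF7, with the group mean ± SD in black. WES1 and GH3.17 are higher in tori 35-7 than in Col-0 on either medium without overlap. With each medium taken alone, 8.61% of all genes are so under water deficit and 7.86% on control medium. The share for both media together is not given. AT1G14120 and PIF7 are highest in tori 35-7 under water deficit, where they average 4.79 and 4.19.

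WAG2, a protein kinase gene of auxin transport control, was the 1 gene measured of 25 transport genes and had differences between -0.25 and 0.22. Of 80 SAUR genes, which respond early to auxin and promote cell expansion, 5 were measured and none passed. At most 0.822% of all genes were called higher in a comparison and at most 0.556% lower. A lack of calls among so few genes therefore tells little about a list. AT3G53250 (SAUR57) was higher under water deficit in tori 35-7 by 0.79 ± 0.23 (limma adjusted p = 0.145) and in Col-0 by 0.39 ± 0.23 (limma adjusted p = 0.521). AT1G19840 (SAUR53) had a response of 0.36 in tori 35-7 and of -0.50 in Col-0, a difference of 0.86 ± 0.32 (limma adjusted p = 0.793). The 4 measured of 13 other auxin-induced regulators did not pass, among them HAT2, a homeobox gene induced by auxin, with a difference of 0.46 ± 0.17 between water deficit and control in Col-0 (limma adjusted p = 0.259) and of 0.23 ± 0.17 in tori 35-7 (limma adjusted p = 0.799).

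PIF7, a phytochrome-interacting factor that induces auxin synthesis and IAA29 in shade, was 1 of 2 measured in the list of 17 PIF factors and shade-induced genes. Its levels were 4.34, 4.08 and 4.15 in tori 35-7 under water deficit, against 3.55, 3.43 and 3.84 in tori 35-7 on control medium. In Col-0 they were 3.89, 3.81 and 3.77 under water deficit, against 3.56, 3.35 and 3.28 on control medium. The water-deficit arrays were above the control arrays in each genotype. With each genotype taken alone, this held for 11.1% of all genes in tori 35-7 and 7.26% in Col-0. The share for both genotypes together is not given here. The differences of PIF7, 0.58 ± 0.14 in tori 35-7 (limma adjusted p = 0.0678) and 0.42 ± 0.14 in Col-0 (limma adjusted p = 0.178), did not pass. FHL, which helps phytochrome A to enter the nucleus, differed by 0.43 ± 0.17 between tori 35-7 and Col-0 under water deficit (limma adjusted p = 0.312).

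Over the 10 lists together, 40 of 234 genes other than IAA29 and GH3.3 were measured. Many of them were dim, such as GH3.4, YUC4, LBD29 and PUCHI, with all group means below the array medians. For such genes the lack of a call does not show that the level was unchanged. In tori 35-7, 1 of the 40 was called higher under water deficit and 0 lower, where 0.822% and 0.338% of all 16548 genes were. Of the 40, 7 had an unadjusted limma p under 0.05, against 1581 of the 16548 genes. In Col-0 no gene of the 40 was called higher or lower by limma, against 0.671% and 0.556% of all genes. An unadjusted limma p under 0.05 was found for 4 of the 40, against 2128 of all genes. For the difference between the responses 0 of 40 were called, against 0.00604% of all genes. There, 2 of the 40 were at an unadjusted limma p under 0.05, against 1006 of all genes. Between the genotypes 0 of 40 were called under water deficit and 0 on control medium. On these media 5 and 3 of the 40 were at an unadjusted limma p under 0.05, against 2126 and 1650 of all genes. Of all genes 0.496% were higher and 0.326% lower in tori 35-7 under water deficit, and 0.272% higher and 0.296% lower on control medium. The median difference of the 40 lay between -0.01 and 0.07 over the 5 comparisons, against -0.01 to 0.01 for all genes. Between the genotypes under water deficit, the differences of IAA29 (1.97) and GH3.3 (0.999) were higher than those of the 40, whose highest value was 0.73 for WES1. In the tori 35-7 response the 40 lay below IAA29, but 4 of them lay above GH3.3 (0.53): SAUR57 (0.79), AT1G14120 (0.78), PIF7 (0.58) and AT1G14130 (0.57). In the difference of the responses 0 of the 40 lay above IAA29 and 1, AT1G19840 (0.86), above GH3.3 (0.59). On control medium WES1 (0.57) lay just above IAA29, and WES1 and GH3.17 (0.43) above GH3.3 (0.41). In the Col-0 response 21 of the 40 lay above IAA29 and 31 above GH3.3.

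Markers of shoot and root were set beside these values. The marker lists were chosen with earlier results of these data known, so their levels and calls are a description. Of 8 listed shoot markers 6 were measured, LHCB4.1 and LHCB4.2 (antenna proteins of photosystem II), PSAE-1 (a subunit of photosystem I) and SPCH, MUTE and FMA (regulators of the stomatal lineage). Their summed log2 level was 37.1 to 37.8 in tori 35-7 under water deficit, against 33.4 to 34.8 in tori 35-7 on control medium. In Col-0 it was 35.0 to 36.6 under water deficit, against 33.9 to 34.9 on control medium. The sum was thus highest in tori 35-7 under water deficit, as were the group means of IAA29 and GH3.3, but not every marker followed it: FMA averaged 5.62 in tori 35-7 and 6.02 in Col-0 under water deficit, and MUTE averaged 2.21 in tori 35-7 and 2.68 in Col-0.

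In tori 35-7, LHCB4.2 (1.08 ± 0.15, limma adjusted p = 0.00271) and FMA (0.85 ± 0.18, limma adjusted p = 0.0353) rose under water deficit while the other 4 did not pass. Of all genes, 0.822% were called higher there. LHCB4.2 also rose in Col-0 (0.71 ± 0.15, limma adjusted p = 0.0372), where 0.671% of all genes were called higher. Between the genotypes under water deficit LHCB4.2 was higher in tori 35-7 (0.88 ± 0.15, limma adjusted p = 0.0198), as were 0.496% of all genes. The other 5 did not pass there, with differences of 0.61 for PSAE-1, 0.43 for LHCB4.1, 0.37 for SPCH, -0.41 for FMA and -0.47 for MUTE (limma adjusted p 0.0847 or more). On control medium 0 of the 6 passed in limma, where 0.272% of all genes were called higher and 0.296% lower. Of the 6, 3 had an unadjusted limma p under 0.05, as had 1650 of all 16548 genes. The differences of the 6 ran between -0.78 for FMA (limma adjusted p = 0.0770) and 0.51 for LHCB4.2 (limma adjusted p = 0.195). Without the 2 narrow arrays PSAE-1 (0.70, limma adjusted p = 0.0444) and FMA (-0.59, limma adjusted p = 0.0445) also passed between the genotypes under water deficit. In that fit LHCB4.1 (0.59, limma adjusted p = 0.0297) and FMA (0.66, limma adjusted p = 0.0238) also passed between the media in Col-0. The share of all genes called in that fit is not given here.

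Of 8 root markers EXPA7 alone was measured. Its log2 level was 4.199 to 4.283 in tori 35-7 under water deficit, against 4.327 to 4.472 in Col-0 under water deficit. On control medium it was 4.102 to 4.335 in tori 35-7, against 4.355 to 4.414 in Col-0. The tori 35-7 arrays thus lay below the Col-0 arrays on either medium, by differences of -0.14 ± 0.12 and -0.13 ± 0.12 that did not pass (limma adjusted p = 0.689 and 0.806). The share of all genes lower in tori 35-7 without overlap was not counted, so this separation has no background to be judged by. The part of shoot or root tissue in the levels of IAA29 and GH3.3 was not tested.

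The genes most like each member were ranked by the Pearson correlation of log2 levels over the 12 arrays, among 16547 other genes. For IAA29 these were AT2G24240 (0.93), AT3G55890 (0.93), AT4G14500 (0.92), AT5G24620 (0.91) and AT1G65510 (0.91), for which the gene tables give no name. AT3G55890 had means of 4.65 ± 0.18 in tori 35-7 under water deficit and 3.89 ± 0.17 in tori 35-7 on control medium, and of 3.82 ± 0.23 in Col-0 under water deficit and 3.56 ± 0.072 in Col-0 on control medium (SD, n = 3 each). All 5 were highest in tori 35-7 under water deficit, with smaller differences than IAA29, from 0.28 (AT4G14500) to 0.76 (AT3G55890) between the media in tori 35-7. For GH3.3 they were AT1G66760 (0.95), AT5G62280 (0.94), AT3G52870 (0.92), AT5G13100 (0.92) and OPCL1 (0.92), the last a coenzyme A ligase gene of jasmonate synthesis. OPCL1 had means of 6.05 ± 0.013 in tori 35-7 under water deficit and 5.64 ± 0.27 in tori 35-7 on control medium, and of 5.30 ± 0.24 in Col-0 under water deficit and 5.29 ± 0.052 in Col-0 on control medium (SD, n = 3 each). GH3.3 itself had rank 79 for IAA29, and IAA29 had rank 62 for GH3.3. Among the 40 auxin and PIF genes WES1 was the most like both, at rank 12 for IAA29 (0.89) and rank 33 for GH3.3 (0.85). With Spearman in place of Pearson 0 of the 5 genes for IAA29 and 2 of the 5 for GH3.3 remained among the first 5.

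**Figure D5:**
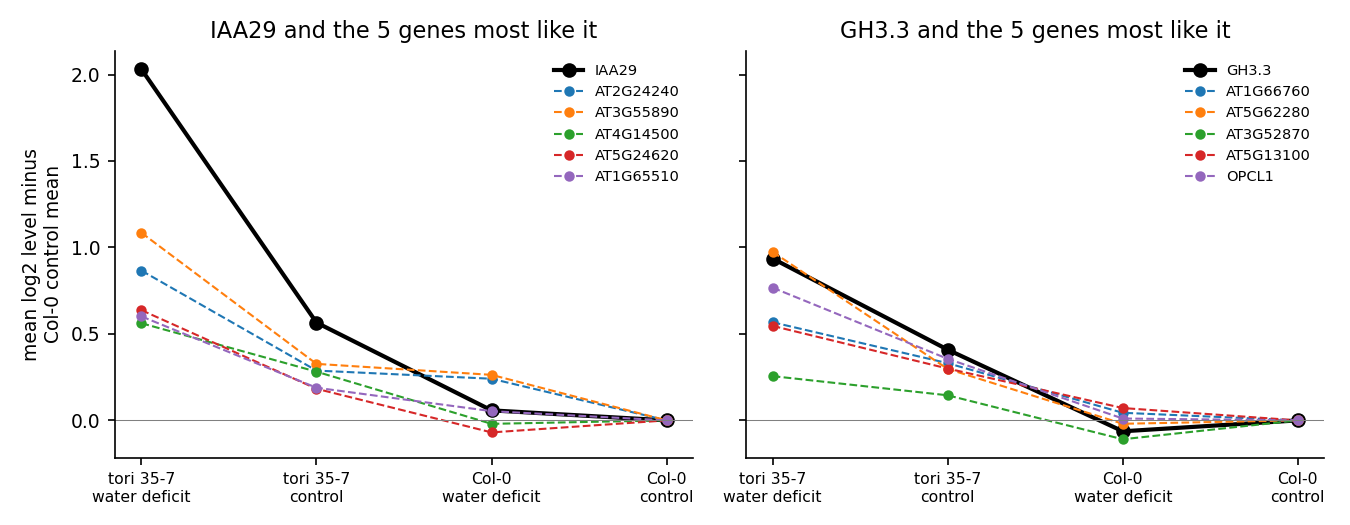
Group means of IAA29 (left, black) and GH3.3 (right, black) and of the 5 genes most like each (dashed), as log2 level minus the mean of Col-0 on control medium. The genes on the left are highest in tori 35-7 under water deficit, with smaller differences than IAA29, whose mean in tori 35-7 under water deficit is 4.50, against 2.47 in Col-0 on control medium.

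The neighbours of both genes on the chromosome were looked up in the RefSeq gene order. AT4G32272 and AT4G32285, the protein-coding genes on either side of IAA29, differed by 0.31 ± 0.22 and 0.25 ± 0.22 between the media in tori 35-7, and by 0.34 ± 0.22 and 0.71 ± 0.22 between tori 35-7 and Col-0 under water deficit, without passing (limma adjusted p 0.164 or more). The nearest measured genes around GH3.3, AT2G23160 and AT2G23200, differed between the media in tori 35-7 by -0.13 ± 0.15 and -0.35 ± 0.15 (limma adjusted p = 0.911 and 0.474) and between the genotypes under water deficit by -0.13 ± 0.15 and -0.08 ± 0.15.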

How the data were processed

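Total RNA of whole seedlings (100 ng per labelling, per the labels' protocols) was hybridised to 12 Affymetrix arrays. The deposited table holds log2 levels for 38408 probe sets, which the authors made, per the submitters' processing notes, with Transcriptome Analysis Console 4.0.1. Its scale is inferred from values of 1.13 to 13.2. The sources used here do not give the background correction, normalization or summarization, so how they bear on low levels such as that of IAA29 is unknown. The scanner files were not used here.

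Names came from the array annotation, updated through RefSeq (TAIR10.1, names and gene order only): 16722 probe sets had 1 gene, 759 several (left out) and 20927 are unnamed here. The brightest probe set stood for each of 16548 genes, 16505 of them in RefSeq. Limma 3.58.1 (R 4.3.3) was run on all 12 arrays with a mean for each group. Adjusted p-values are two-sided limma values with Benjamini-Hochberg adjustment over 16548 genes, threshold 0.05, and the steps were tested on simulated data. No 2 arrays held identical values (0 pairs). Whether replicates were separate cultures is not in the labels. The p-values therefore cover only the spread between these arrays, which may be technical.

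The members and gene lists were chosen with earlier results of these data known. Named were all measured Aux/IAA and GH3 genes, called members of the other lists (or up to 2 with the smallest p), and the 5 genes most like each member. The neighbouring genes were added by position after the values were seen. Alternatives were quantile normalization, median centring, a filter at the 25th percentile of level, array weights, the compared groups only, a replicate block, the mean of probe sets, trend and robust priors, a minimum of 2-fold, and leaving out each array. A fit without the 2 arrays of narrowest spread was chosen after seeing the data.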

Additional observations from a re-analysis of the deposited data

How the results depend on the processing

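The differences of IAA29 and GH3.3 moved by less than the pooled SD between replicates (0.283 and 0.284) under every alternative run. This bound is loose, because leaving out 1 array can seldom exceed it, and it let the Col-0 responses change sign. Without single arrays the ranges over the 5 comparisons (tori 35-7 response, Col-0 response, their difference, genotypes under water deficit, genotypes on control medium) were 1.31 to 1.74, -0.05 to 0.13, 1.26 to 1.68, 1.82 to 2.25 and 0.45 to 0.67 for IAA29, and 0.42 to 0.70, -0.33 to 0.09, 0.44 to 0.85, 0.84 to 1.26 and 0.24 to 0.51 for GH3.3. The count of the 40 other auxin and PIF genes called was small and depended on the setting. The share of all genes called under each alternative is not given here, so these counts have no background to be judged by. In tori 35-7 the 1 gene called higher under water deficit became 4 with array weights (AT1G14120, AT1G14130, SAUR57 and PIF7, the second named after its value was seen), 2 with the replicate block, 0 with centring on the median, 0 with trend and robust priors and 0 with the 2-fold minimum, and ranged from 0 to 2 without single arrays. In Col-0 it was 1 (AT1G14120) with array weights and 1 without the 2 arrays of narrow spread, against 0. Between the genotypes under water deficit it was 1 (WES1) with array weights, centring, quantile normalization, the replicate block, the filter on low levels or without the 2 narrow arrays, against 0, and 0 to 1 without single arrays, being 1 without Col-0 water deficit replicate 1 or 2. On control medium it was 2 (WES1 and GH3.17) with array weights, against 0. Replicate numbers were not taken as pairs: 3 of 18 same-numbered pairs of arrays had deviations correlated over 0.1 (range -0.06 to 0.40), and 10 of the 12 arrays were on average closer to their own number, a hint from the data and not from the design. The first 5 genes most like IAA29 shared 0 with those by Spearman correlation, and those of GH3.3 shared 2. The number of arrays, and the low signal of IAA29 in Col-0, limit the precision.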
